A study of Mus musculus with 10 samples.

Results

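The 8 genes described here serve antigen presentation on major histocompatibility complex (MHC) class II, and they were followed through the accessible regions of chromatin that lie nearest to them. A region belonged to a gene when that gene's body was the nearest protein-coding gene body within 50 kb. Of 36251 accessible regions (peaks), 19 met this rule. Of these, 3 belonged to Ciita, 3 to H2-Ab1, 2 to H2-Aa, 2 to H2-Eb1, 2 to Cd74, 4 to H2-DMa, 2 to H2-Oa and 1 to H2-Ob. The H2 genes accounted for 14 of the peaks, all on chromosome 17, and 2 peaks of H2-DMa lay equally near to Brd2, so they are shared.

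ATAC-seq, in which the Tn5 transposase cuts open chromatin and marks it for sequencing, was run on innate lymphoid cells (ILCs), which had been sorted out of the lamina propria of the small intestine. The mice were C57BL/6. Every group, the controls included, carried a tamoxifen-inducible Cre driven from Id2 and a red fluorescent reporter, and all mice received tamoxifen in the diet for several weeks before the sort. RORgt-KO mice (n = 2 libraries) had the loxP-flanked allele that gives the group its name. RORgt-Tbet-KO mice (n = 2) carried that allele and loxP-flanked Tbx21, and RORgt-RORa-KO mice (n = 3) carried it and loxP-flanked Rora. Control mice (n = 3) carried the Cre and the reporter alone. A library held cells of 1 mouse or of a small pool of mice, Id2 is active in other immune cells besides ILCs, and loxP-flanked alleles without Cre were not among the groups. For the age and sex of the mice and the exons deleted, the sources used here give nothing.

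MHC class II molecules are pairs of an alpha and a beta chain that carry peptides of ingested proteins to the cell surface for CD4+ T cells. Their genes are switched on together by the transactivator CIITA, which binds no DNA itself and docks on RFX and NF-Y factors at paired promoter elements, the X box and the Y box. Some intestinal group 3 ILCs display class II without the usual costimulatory ligands and are known to restrain T cells that react to commensal bacteria. B cells and dendritic cells use the same genes at high levels.

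The promoter windows of 4 class II genes are shown because they hold the paired elements through which CIITA acts. RefSeq windows on GRCm38.p6, from 250 bases before to 50 after the annotated start, matched 5 of the 8 genes (not Ciita, H2-Ab1 and Cd74). The stretches below run 5′ to 3′ on the gene's strand, and capitals mark GCAAC, a core of the X box, and ATTGG, the core of the Y box.
H2-Oa: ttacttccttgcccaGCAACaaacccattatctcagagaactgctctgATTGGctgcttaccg
H2-Ob: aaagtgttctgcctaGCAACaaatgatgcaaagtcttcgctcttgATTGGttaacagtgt
H2-Aa: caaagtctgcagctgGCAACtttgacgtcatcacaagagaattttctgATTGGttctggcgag
H2-Eb1: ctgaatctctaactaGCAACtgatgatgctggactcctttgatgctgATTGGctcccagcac
The capitals stood 28, 25, 28 and 27 bases apart in these windows, in the order shown. The window of H2-Oa was chr17:34092129-34092428 (plus strand), that of H2-Ob chr17:34238655-34238954 (plus), that of H2-Aa chr17:34287774-34288073 (minus) and that of H2-Eb1 chr17:34305617-34305916 (plus). H2-DMa had 2 windows and neither held the pair. Over 32544 windows of 300 bases, 35.1% held GCAAC and 37.4% held ATTGG on either strand. GCAAC followed by ATTGG on the same strand, 15 to 40 bases apart, stood in 402 windows on either strand, or 1.24%; that spacing was set after these promoters had been seen. The H2-Aa window lay wholly inside an ATAC peak of that gene, while the windows of H2-Oa, H2-Eb1 and H2-Ob ended 242, 329 and 3216 bp from the nearest peak of their own gene.

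The deposited values are log2 scaled reads per peak, and every peak value and difference below is on that scale unless a fold is named. Libraries held 2271585 to 5047436 reads in peaks, and a class II peak held 3 to 235 reads in a library, with a median of 47. Libraries of the same group correlated at r = 0.908 to 0.967 over all peaks, and knockout libraries with Control at 0.741 to 0.878, where Control replicate 3 stood nearest to the knockouts. All 9 ILC marker genes checked, among them Id2, Il7r, Thy1 and Kit, had peaks. Peaks were tested with limma in a fit of all 4 groups, with p-values adjusted (Benjamini-Hochberg) across the 36251 peaks and a threshold of 0.05, and SE is limma's moderated standard error. The 3 comparisons with Control share the same 3 Control libraries. In bulk cells a change in the share of an accessible cell type and a change per cell cannot be told apart.

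**Figure D1:**
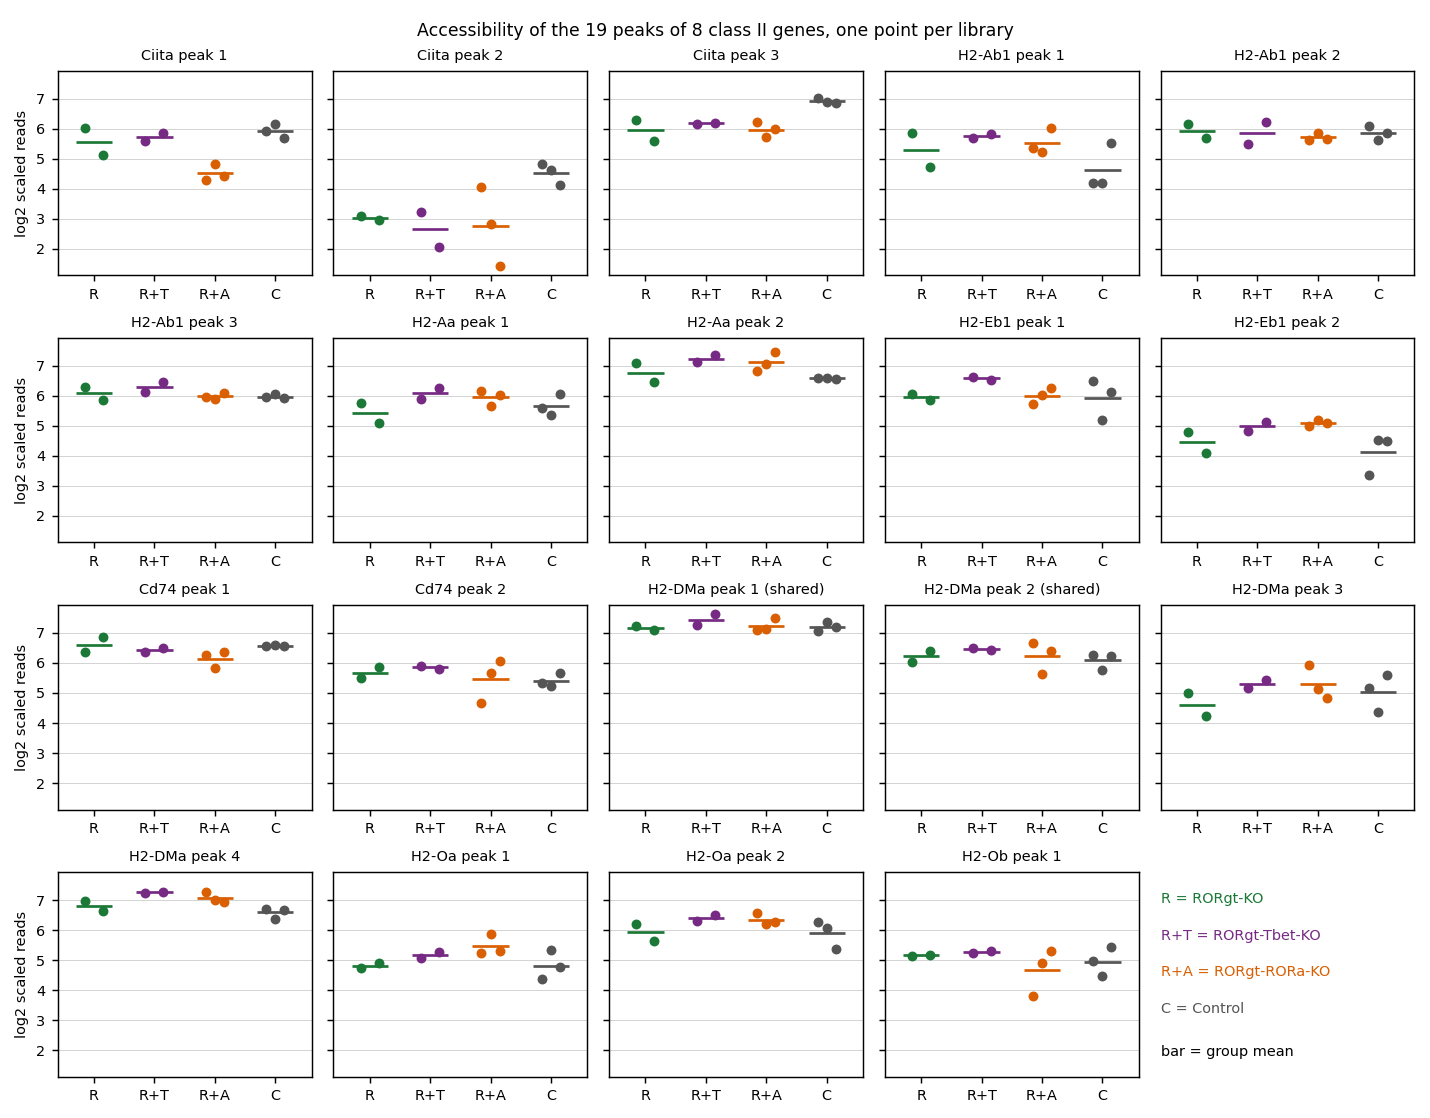
Log2 scaled reads in each of the 19 class II peaks, 1 point per library, with bars at the group means; R is RORgt-KO, R+T RORgt-Tbet-KO, R+A RORgt-RORa-KO and C Control, and peaks of a gene are numbered along the chromosome. Ciita peak 3 is at 6.28 or below in every knockout library and at 6.87 or above in every Control library, while most panels of the other genes show overlapping groups.

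Chromatin at Ciita, which encodes the transactivator, was less open in the knockouts. The Ciita gene spans 10480014 to 10531064 on chromosome 16 of GRCm38, and its 3 peaks lay 14374 bp outside the gene body (10465265 to 10465640) and inside it (10498239 to 10498429, and 10524713 to 10525370). Every one of the 3 peaks averaged lower than Control in each knockout group, and this held under each scaling tried. The peak at 10524713 passed the test in each knockout group, and all 3 peaks passed in RORgt-RORa-KO.

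At the peak inside Ciita at 10524713, the values were 6.28 and 5.61 in the RORgt-KO libraries, 6.14 and 6.20 in RORgt-Tbet-KO, 6.21, 5.73 and 5.97 in RORgt-RORa-KO, and 7.03, 6.88 and 6.87 in Control. Each knockout library lay below each Control library. RORgt-KO was lower by 0.98 (SE 0.26, 1.97-fold, limma adjusted p = 0.0112). RORgt-Tbet-KO was lower by 0.75 (SE 0.26, 1.69-fold, limma adjusted p = 0.0362), and RORgt-RORa-KO by 0.96 (SE 0.23, 1.94-fold, limma adjusted p = 0.00211). The knockout groups overlapped among themselves, and their differences at this peak were 0.23 for RORgt-Tbet-KO minus RORgt-KO (95% interval -0.35 to 0.81), 0.02 for RORgt-RORa-KO minus RORgt-KO (-0.51 to 0.56, below 0 with values centred on each library's median) and -0.20 for RORgt-RORa-KO minus RORgt-Tbet-KO (-0.73 to 0.33). Without RORgt-KO replicate 2, the RORgt-KO difference was -0.64 and did not pass (limma adjusted p = 0.282). The RORgt-Tbet-KO call was lost under 5 of 16 alternatives, with adjusted p up to 0.21: with values centred on each library's median, without either RORgt-Tbet-KO library, and without Control replicate 1 or 2.

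The Ciita peak outside the gene, at 10465265, set RORgt-RORa-KO apart. Values there were 6.01 and 5.11 in the RORgt-KO libraries, 5.58 and 5.85 in RORgt-Tbet-KO, 4.29, 4.82 and 4.43 in RORgt-RORa-KO, and 5.93, 6.15 and 5.68 in Control. Every RORgt-RORa-KO library was below every library of the other groups, while RORgt-KO and RORgt-Tbet-KO overlapped Control. RORgt-RORa-KO was lower than Control by 1.41 (SE 0.31, 2.65-fold, limma adjusted p = 0.00077). It was also lower than RORgt-Tbet-KO by 1.21 (SE 0.34, 2.31-fold, limma adjusted p = 0.0265), a call lost without either RORgt-Tbet-KO library or without RORgt-RORa-KO replicate 1. Against RORgt-KO the difference was -1.05 (SE 0.34) and did not pass (limma adjusted p = 0.144). RORgt-KO differed from Control by -0.36 (95% interval -1.06 to 0.35) and RORgt-Tbet-KO by -0.20 (-0.90 to 0.50).

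The peak inside Ciita at 10498239 was the weakest of the 19 and the only one with a mean under 10 reads. It stood at 3.09 and 2.97 in the RORgt-KO libraries, 3.23 and 2.07 in RORgt-Tbet-KO, 4.07, 2.82 and 1.43 in RORgt-RORa-KO, and 4.83, 4.62 and 4.14 in Control. All knockout libraries were below all Control libraries, and RORgt-RORa-KO spread over the widest range. RORgt-RORa-KO was lower by 1.76 (SE 0.67, 3.38-fold, limma adjusted p = 0.044), a call lost under 7 of 15 alternatives, each of them without 1 library. RORgt-KO was at -1.50 (SE 0.74, limma adjusted p = 0.214) and RORgt-Tbet-KO at -1.88 (SE 0.74, limma adjusted p = 0.0686), neither past the threshold; the RORgt-Tbet-KO difference passed under 4 alternatives.

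Summed over its peaks and set per kb of peak, Ciita averaged 99.1 ± 34.7 scaled reads per kb in RORgt-KO (SD, n = 2), 108 ± 4.49 in RORgt-Tbet-KO (n = 2), 77.9 ± 10.9 in RORgt-RORa-KO (n = 3) and 169 ± 15.1 in Control (n = 3). The Control libraries, from 152 to 180, lay above all others. RORgt-KO, from 74.5 to 124, overlapped both RORgt-Tbet-KO (105 to 111) and RORgt-RORa-KO (71.2 to 90.5).

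Markers of B cells, which express Ciita, were also lower in each knockout group where they had peaks. Of 8 B cell genes checked, Pax5, Ebf1 and Blk had peaks, and each had lower peaks and no higher peak in each knockout group, while Cd79a, Cd79b, Ms4a1 and Cd22 were among those with none. By peak, 5 of 12 were lower in RORgt-KO, 5 in RORgt-Tbet-KO and 6 in RORgt-RORa-KO, beside 7.12%, 11.3% and 16.1% of all peaks. The 12 peaks of these genes summed, on a log2 scale, to 9.41 to 9.44 in RORgt-KO, 9.49 to 9.72 in RORgt-Tbet-KO, 9.17 to 9.40 in RORgt-RORa-KO and 10.05 to 10.16 in Control. Their part in the Ciita result was not tested.

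The classical chains are H2-Aa, the alpha chain of I-A, H2-Ab1, its beta chain, and H2-Eb1, the beta chain of I-E. Their 7 peaks showed no call in RORgt-KO and a scatter of increases elsewhere, of which 1 passed. That was the peak 7984 bp from H2-Aa (chromosome 17, 34295807 to 34296444), with 7.08 and 6.46 in the RORgt-KO libraries, 7.12 and 7.34 in RORgt-Tbet-KO, 6.82, 7.05 and 7.46 in RORgt-RORa-KO, and 6.60, 6.58 and 6.56 in Control. All libraries of RORgt-Tbet-KO and RORgt-RORa-KO were above Control, whereas RORgt-KO had a library on either side. RORgt-Tbet-KO was higher by 0.65 (SE 0.23, 1.57-fold, limma adjusted p = 0.044), a call lost without either RORgt-Tbet-KO library and without any of the 3 Control libraries, with adjusted p up to 0.319. RORgt-RORa-KO was at 0.53 (SE 0.21, limma adjusted p = 0.0534) and RORgt-KO at 0.19 (SE 0.23, limma adjusted p = 0.692). The other H2-Aa peak, which holds the promoter shown above, differed from Control by -0.23 in RORgt-KO, 0.40 in RORgt-Tbet-KO and 0.27 in RORgt-RORa-KO (limma adjusted p of 0.371 or more), and each knockout group overlapped Control there.

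The peak 5212 bp from H2-Ab1 (34257741 to 34258015) had 5.87 and 4.74 in the RORgt-KO libraries, 5.69 and 5.81 in RORgt-Tbet-KO, 5.34, 5.21 and 6.03 in RORgt-RORa-KO, and 4.18, 4.18 and 5.53 in Control. Control replicate 3 stood well above its 2 companions, and only RORgt-Tbet-KO cleared it with both libraries. The difference was 1.12 in RORgt-Tbet-KO (SE 0.41, limma adjusted p = 0.0505) and 0.90 in RORgt-RORa-KO (SE 0.37, limma adjusted p = 0.0659), so neither passed; the first passed under 8 alternatives and the second under 4. The other 2 H2-Ab1 peaks lay 1370 bp from the gene (34261525) and across the edge of the gene body at its lower coordinate, 34263227 (the peak at 34263024). They differed from Control by -0.15 to 0.31 over the 3 knockout groups, with limma adjusted p of 0.421 or more.

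The peak inside H2-Eb1 (34313384 to 34313756) had 4.81 and 4.11 in the RORgt-KO libraries, 4.82 and 5.14 in RORgt-Tbet-KO, 5.01, 5.21 and 5.09 in RORgt-RORa-KO, and 3.37, 4.54 and 4.48 in Control. The RORgt-RORa-KO libraries lay close together and above Control, at a difference of 0.97 (SE 0.39, limma adjusted p = 0.0609) that did not pass. The H2-Eb1 peak 579 bp from the gene, at 34304722, stood at 6.64 and 6.53 in RORgt-Tbet-KO, against 6.48, 5.18 and 6.14 in Control, a difference of 0.65 (SE 0.31, limma adjusted p = 0.131). It differed by 0.03 in RORgt-KO and 0.08 in RORgt-RORa-KO.

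Cd74, on chromosome 18 (60803849 to 60812652), encodes the invariant chain that fills the class II groove until peptide loading. Its peak across the edge of the gene body at the lower coordinate, 60803849 (60803343 to 60803874), had 6.35 and 6.86 in the RORgt-KO libraries, 6.37 and 6.51 in RORgt-Tbet-KO, 6.27, 5.82 and 6.35 in RORgt-RORa-KO, and 6.56, 6.58 and 6.56 in Control. RORgt-RORa-KO and RORgt-Tbet-KO lay below Control in every library, by 0.42 (SE 0.22, limma adjusted p = 0.155) and 0.13 (SE 0.25, limma adjusted p = 0.766), and neither difference passed. The intervals were -0.88 to 0.03 in RORgt-RORa-KO and -0.63 to 0.38 in RORgt-Tbet-KO, while RORgt-KO was at 0.04 (-0.47 to 0.55). The second Cd74 peak, inside the gene at 60805005, differed by 0.27 in RORgt-KO, by 0.44 in RORgt-Tbet-KO and by 0.06 in RORgt-RORa-KO, with limma adjusted p of 0.396 or more.

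H2-DMa encodes the alpha chain of H2-M, which exchanges the invariant chain remnant for peptides. Of its 4 peaks, the one inside the gene at 34135341 to 34135883 had 6.97 and 6.63 in the RORgt-KO libraries, 7.24 and 7.27 in RORgt-Tbet-KO, 7.27, 6.99 and 6.93 in RORgt-RORa-KO, and 6.71, 6.37 and 6.68 in Control. RORgt-Tbet-KO and RORgt-RORa-KO were above Control in every library and RORgt-KO overlapped it. RORgt-Tbet-KO was higher by 0.67 (SE 0.22, 1.59-fold, limma adjusted p = 0.0274), a call lost without either RORgt-Tbet-KO library or without Control replicate 2, with adjusted p up to 0.183. RORgt-RORa-KO was at 0.47 (SE 0.20, limma adjusted p = 0.0659). The peak at 34129210 differed by -0.43 to 0.26, and the 2 peaks shared with Brd2 by -0.04 to 0.37, with limma adjusted p of 0.376 or more.

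H2-Oa and H2-Ob encode the alpha and beta chains of H2-O, which inhibits H2-M. None of their 3 peaks passed in any comparison with Control. The H2-Oa peak at 34101582 had 6.22 and 5.65 in the RORgt-KO libraries, 6.29 and 6.49 in RORgt-Tbet-KO, 6.57, 6.21 and 6.27 in RORgt-RORa-KO, and 6.28, 6.07 and 5.38 in Control, so RORgt-KO and RORgt-RORa-KO overlapped Control, while RORgt-Tbet-KO sat just above Control and above RORgt-KO. The largest H2-O difference was 0.65 (SE 0.33, limma adjusted p = 0.147) at the H2-Oa peak at 34092670 in RORgt-RORa-KO. The single H2-Ob peak differed by 0.21 in RORgt-KO (95% interval -0.65 to 1.07), 0.32 in RORgt-Tbet-KO (-0.54 to 1.18) and -0.28 in RORgt-RORa-KO (-1.05 to 0.49).

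**Figure D2:**
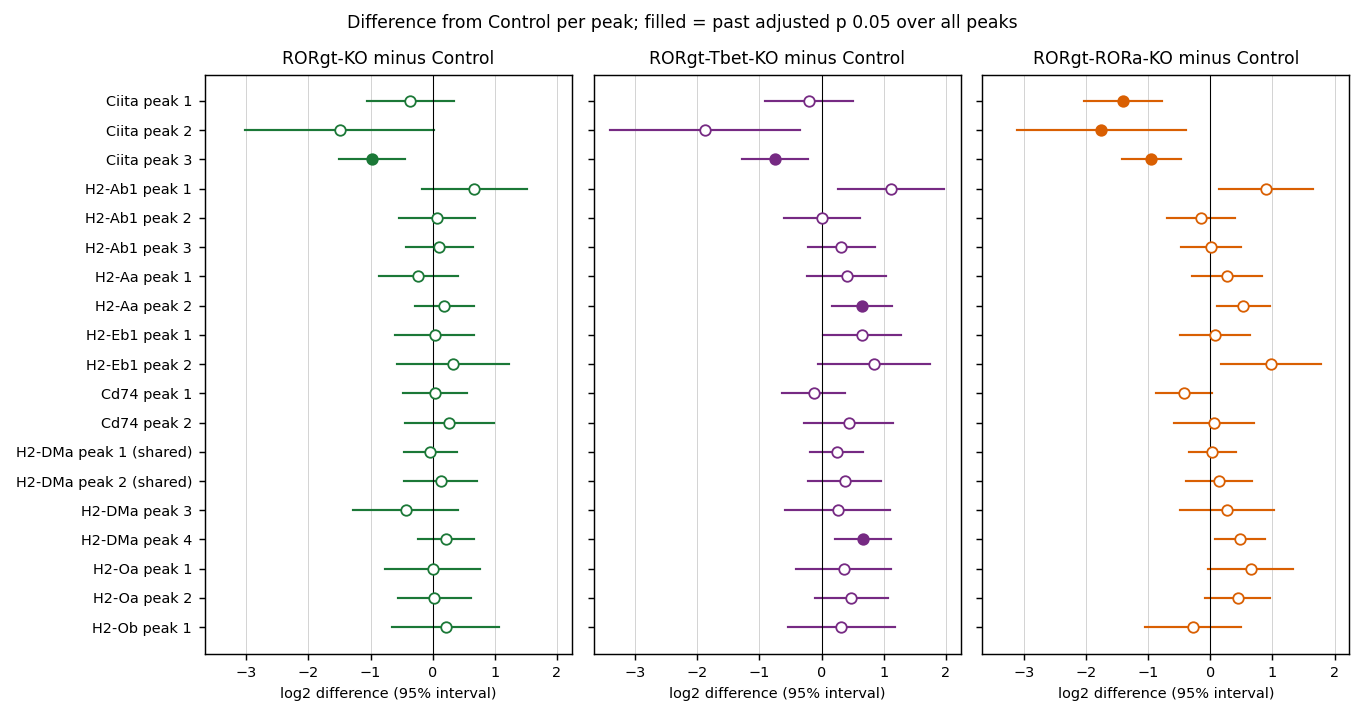
Log2 difference from Control of each of the 19 class II peaks, with a panel each for RORgt-KO, for RORgt-Tbet-KO and for RORgt-RORa-KO and with limma's 95% intervals; filled circles passed the adjusted threshold and "shared" marks peaks equally near to Brd2. The 3 Ciita peaks lie left of 0 in every panel, and the 2 filled circles right of 0, at H2-Aa and H2-DMa, belong to RORgt-Tbet-KO.

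Counted over the 19 peaks, 1 passed in RORgt-KO against Control, as lower, where 12.3% of all peaks passed in either direction, 5.19% as higher and 7.12% as lower. In RORgt-Tbet-KO 3 passed, 2 as higher and 1 as lower, where 22.6% of all peaks passed, 11.3% in each direction. In RORgt-RORa-KO 3 passed, all as lower and all at Ciita, where 31.2% of all peaks passed, 15.1% as higher and 16.1% as lower. Between RORgt-Tbet-KO and RORgt-KO 0 passed (0 also at an unadjusted p under 0.05 and with voom, limma's test for counts), beside 1.14% of all peaks. Between RORgt-RORa-KO and RORgt-KO 0 passed (1 at an unadjusted p under 0.05, 0 with voom), beside 1.47%. Between RORgt-RORa-KO and RORgt-Tbet-KO the Ciita peak at 10465265 passed, as lower, beside 7.54% of all peaks, 3.82% as higher and 3.72% as lower. In limma's moderated F test over the 4 groups, 2 of the 19 differed, the Ciita peaks at 10465265 (F = 8.06, adjusted p = 0.00332) and 10524713 (F = 7.35, adjusted p = 0.00522), beside 30.7% of all peaks. Counting both directions together, in each of these comparisons the class II peaks passed no more often than peaks in general.

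On chromosome 17, where the H2 genes stand within one cluster, most of the 14 peaks averaged above Control, unlike those of Ciita. Differences from Control were above 0 in 11 of 14 peaks in RORgt-KO (median 0.09, against 0.02 over all peaks), in 14 of 14 in RORgt-Tbet-KO (0.39 against 0.01) and in 12 of 14 in RORgt-RORa-KO (0.27 against 0.02). Over all peaks, 52.0%, 50.4% and 51.3% were above 0 in the same order of groups. The 14 peaks were read in the same libraries and lie in the same cluster, so they are not independent observations. Under the other scalings the counts were 10 to 12, 14 and 12. Of these peaks 0 passed the limma test in RORgt-KO (0 also at an unadjusted p under 0.05) and 0 in RORgt-RORa-KO (4 at an unadjusted p under 0.05), while 2 passed in RORgt-Tbet-KO. With voom, 2 passed in RORgt-RORa-KO, at H2-Ab1 and H2-Aa. Mean values over the 14 peaks were 5.96 and 5.57 in the RORgt-KO libraries, 6.04 and 6.26 in RORgt-Tbet-KO, 5.94, 5.91 and 6.08 in RORgt-RORa-KO, and 5.65, 5.52 and 5.84 in Control. Both RORgt-Tbet-KO libraries and all RORgt-RORa-KO libraries were above Control, while RORgt-KO had a library above Control and another within its range.

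Sequencing depth moved with some of these means. RORgt-Tbet-KO libraries had 4580787 and 5047436 reads in peaks, and the RORgt-RORa-KO library with the highest mean had 4733829, against 2825693 and 2271585 in the other RORgt-RORa-KO libraries. In Control the highest mean belonged to the library with fewest reads, 2518233, against 3381784 and 3361390. The part of depth in the chromosome 17 differences was not tested. Dendritic cell and macrophage markers, whose cells carry much class II, summed to 10.86 to 10.88 in RORgt-KO, 11.04 to 11.20 in RORgt-Tbet-KO, 10.65 to 11.08 in RORgt-RORa-KO and 10.60 to 10.68 in Control on the log2 scale, over 17 peaks of 7 of 12 genes. Itgax, Csf1r, Clec9a and Lyz2 were among those with no peak. Spi1 had a higher peak in each knockout group, Fcgr1 had one in RORgt-Tbet-KO, and Zbtb46 had both higher and lower peaks. Of these 17 peaks 3 passed in RORgt-KO (17.6%), 4 in RORgt-Tbet-KO (23.5%) and 3 in RORgt-RORa-KO (17.6%). Over all peaks 12.3%, 22.6% and 31.2% passed. The median difference of the 17 peaks was 0.10, 0.25 and -0.22 in that order of groups. Epithelial markers (10 peaks of 5 of 7 genes, Krt18 and Vil1 having none) summed to 9.44 to 9.48 in RORgt-KO, 9.60 to 9.71 in RORgt-Tbet-KO, 9.51 to 9.62 in RORgt-RORa-KO and 9.09 to 9.23 in Control, so every knockout library was above Control. T cell markers (7 peaks of 4 of 7 genes) summed to 8.27 to 8.41 in RORgt-KO, 8.53 to 8.82 in RORgt-Tbet-KO, 8.81 to 8.92 in RORgt-RORa-KO and 8.33 to 8.52 in Control. Calls among these 7 peaks were mixed. RORgt-KO had 1 higher (Cd3e) and 1 lower (Cd5). For RORgt-Tbet-KO, 2 were higher and 2 lower, with Cd3e only higher, Cd28 only lower and Cd5 both. RORgt-RORa-KO had 3 higher and 2 lower, with Cd3d and Cd3e only higher, Cd5 only lower and Cd28 both. As shares of the list these are 28.6%, 57.1% and 71.4%. ILC marker sums ran from 13.62 to 13.63 for RORgt-Tbet-KO, above the Control range of 13.23 to 13.40. The sums of RORgt-KO (13.24 to 13.34) and RORgt-RORa-KO (13.29 to 13.58) overlapped Control. Of the 77 ILC marker peaks, RORgt-Tbet-KO had 19 higher and 3 lower, beside 11.3% of all peaks in each direction. RORgt-RORa-KO had 15 higher and 9 lower, beside 15.1% and 16.1% of all peaks. RORgt-KO had 5 higher and 4 lower, beside 5.19% and 7.12%. The part of these markers in the result was not tested either.

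**Figure D3:**
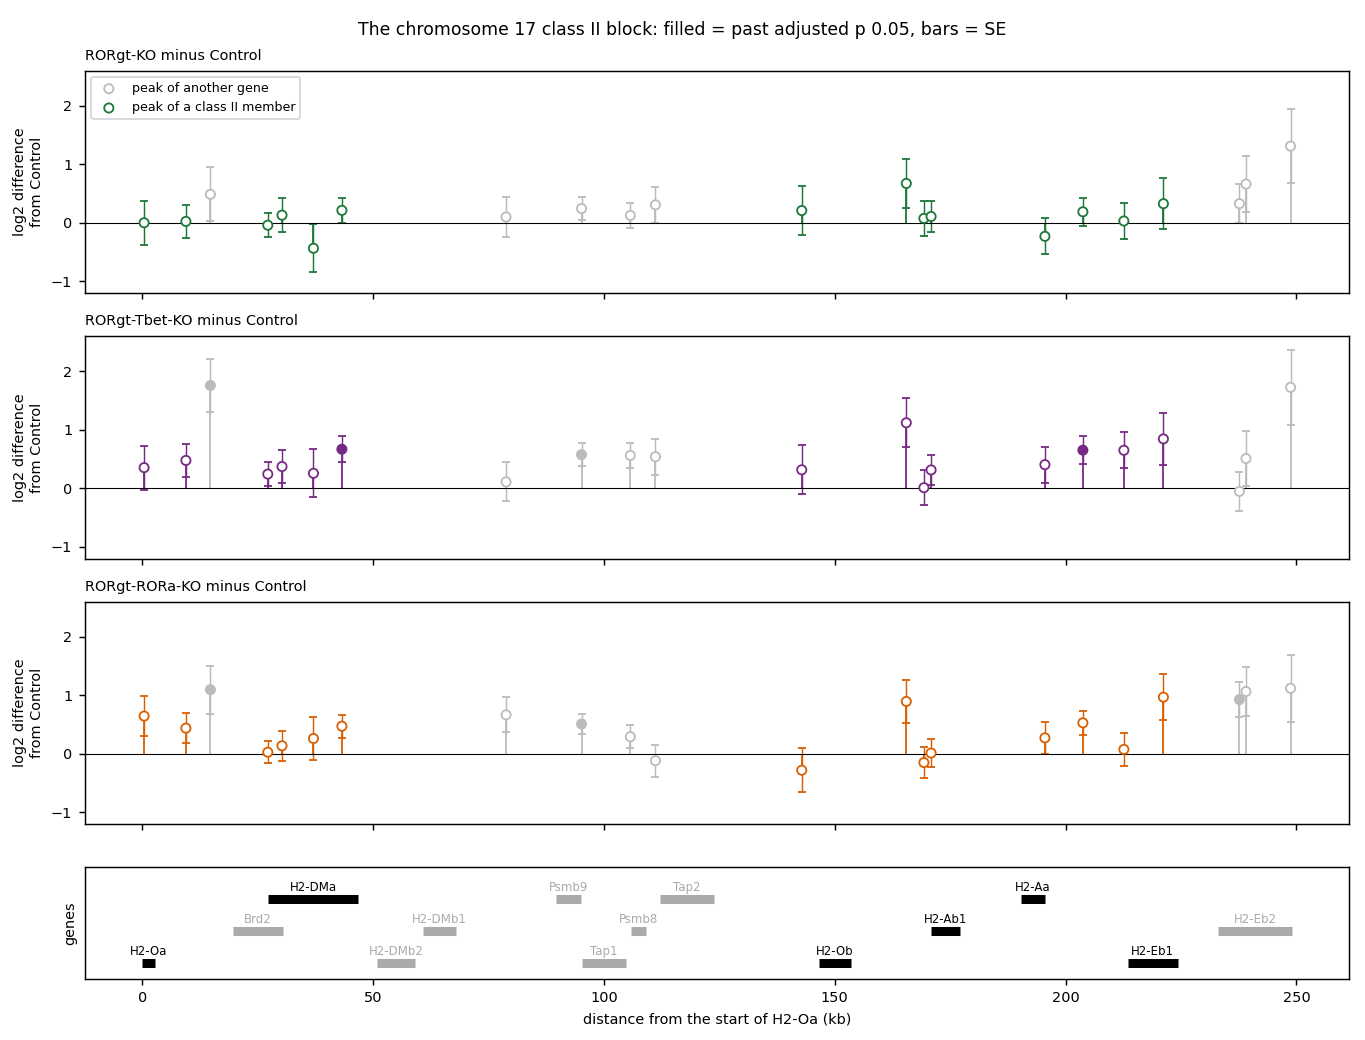
Log2 difference from Control (SE bars) of every peak in the chromosome 17 class II cluster against its distance in kb from the start of H2-Oa, for RORgt-KO, for RORgt-Tbet-KO and for RORgt-RORa-KO, with genes drawn to scale below; coloured points are class II peaks, grey ones peaks of other genes, and filled ones passed the adjusted threshold. All 14 coloured points are above 0 in RORgt-Tbet-KO, and grey points of interspersed genes are above 0 there too, apart from a peak of H2-Eb2 at -0.05.

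Genes interspersed with or beside the class II genes were read for the same reason. Of these 6 genes, all with peaks, 0 changed in RORgt-KO, 4 had higher peaks in RORgt-Tbet-KO (Psmb9, Tap1, Tapbp and Brd2) and 3 in RORgt-RORa-KO (Psmb9, Tap1 and Brd2). None had lower peaks. Counted by peak, 3 of 9 were higher in RORgt-Tbet-KO and 2 of 9 in RORgt-RORa-KO, beside 11.3% and 15.1% of all peaks. These 9 include the 2 peaks shared by Brd2 and H2-DMa, already counted as class II peaks, which did not pass against Control. Psmb9, an immunoproteasome subunit, and Tap1, a peptide transporter of the class I route, share a peak, which was higher by 0.58 in RORgt-Tbet-KO (SE 0.20, limma adjusted p = 0.036) and by 0.51 in RORgt-RORa-KO (SE 0.18, limma adjusted p = 0.0277). A peak near Brd2, a reader of acetylated histones, was higher by 1.76 in RORgt-Tbet-KO (SE 0.46, limma adjusted p = 0.00614) and by 1.10 in RORgt-RORa-KO (SE 0.41, limma adjusted p = 0.0411). A peak at Tapbp, the tapasin gene, was higher by 1.10 in RORgt-Tbet-KO (SE 0.27, limma adjusted p = 0.00438).

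Levels differed among the class II genes. Per kb of peak, H2-Aa averaged 158 ± 48.4 scaled reads in RORgt-KO, 222 ± 29.4 in RORgt-Tbet-KO, 206 ± 33.4 in RORgt-RORa-KO and 150 ± 12.5 in Control. H2-DMa averaged 168 ± 11.2, 215 ± 15.8, 191 ± 24.1 and 164 ± 11.6 scaled reads per kb in the same order of groups, and Cd74 180 ± 40.3, 174 ± 3.05, 143 ± 30.6 and 165 ± 8.0. The H2-DMa levels include the 2 peaks shared with Brd2. The shared peak at 34119200 had the highest mean log2 value of the H2-DMa peaks in Control, 7.20, against 6.59 at the peak at 34135341. The rankings that follow were not repeated without the shared peaks. Of the 8 genes in Control, Ciita (169), Cd74 (165) and H2-DMa (164) had the highest means and lay within each other's ranges, while H2-Eb1 (89.5) and H2-Ob (76.9) had the lowest. H2-Aa, from 139 to 163 in Control, reached into the ranges of the leading 3. In RORgt-RORa-KO, Ciita (77.9) was next to lowest, above H2-Ob (66.7), and H2-Aa (206) and H2-DMa (191) led with overlapping ranges. H2-Oa (185, from 170 to 193) overlapped both leaders there. In RORgt-Tbet-KO, H2-Aa (222) and H2-DMa (215) led, with overlapping ranges, and H2-Ob (92.4) was lowest. H2-Ab1 (184, from 158 to 209) overlapped both leaders in that group. All are SDs with n = 2, 2, 3 and 3.

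**Figure D4:**
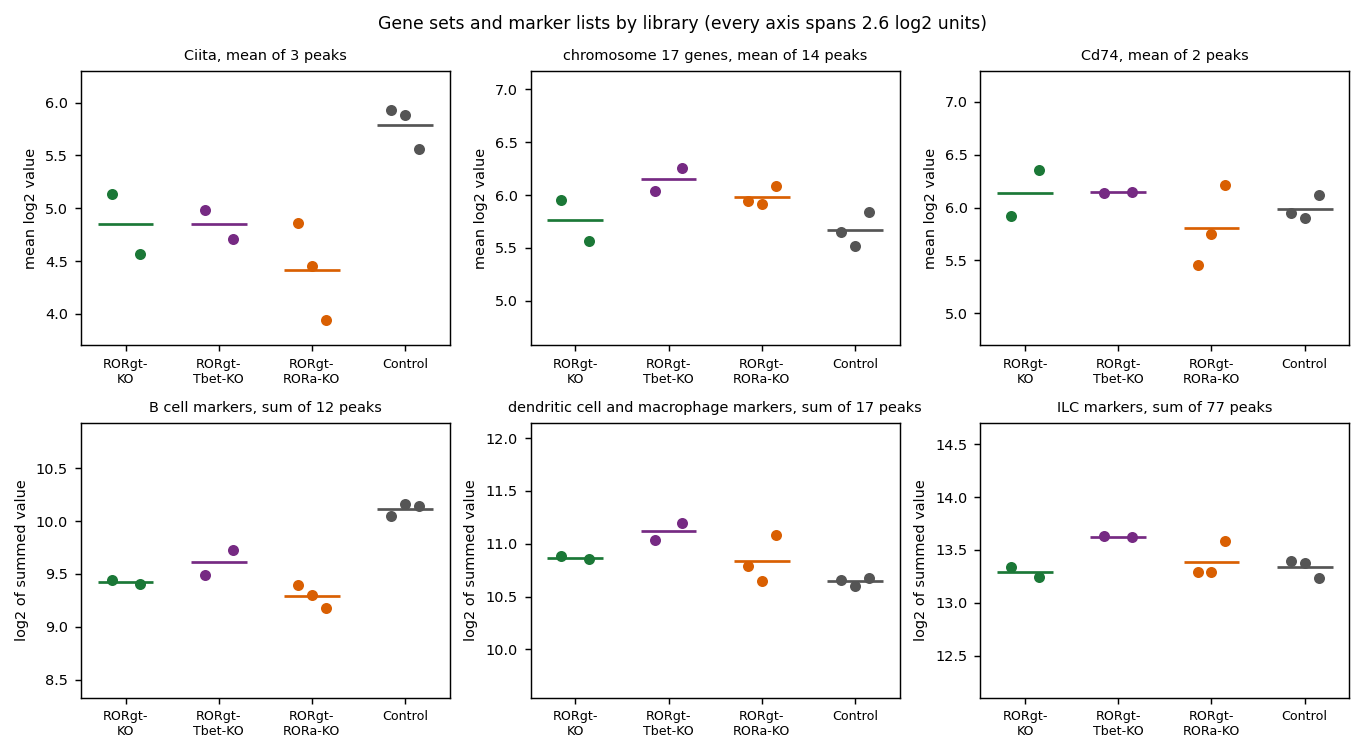
Mean log2 value of the Ciita, chromosome 17 and Cd74 peaks and log2 of the summed value of B cell, dendritic cell and macrophage, and ILC marker peaks, 1 point per library with bars at the group means; each axis spans 2.6 log2 units. Control is above every knockout library in the Ciita and B cell panels, and RORgt-Tbet-KO has the highest group mean in the chromosome 17 panel.

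The route by which interferon-gamma induces Ciita was read next, from the receptor through JAK kinases to IRF1. All 9 genes of this list had peaks, and the leading peak of a gene below is the one with the smallest p. Of their 57 peaks, 7 passed in RORgt-KO (12.3%, as over all peaks), 11 in RORgt-Tbet-KO (19.3%, beside 22.6% of all peaks) and 17 in RORgt-RORa-KO (29.8%, beside 31.2%). Counted in both directions together, the list thus stood near or below the background. Most of these calls were higher: 6, 10 and 14 peaks in that order of groups, where 5.19%, 11.3% and 15.1% of all peaks were higher. Only 1, 1 and 3 peaks were lower, where 7.12%, 11.3% and 16.1% of all peaks were. In RORgt-KO 5 genes had only higher peaks and Jak1 only a lower one. In RORgt-Tbet-KO 5 had only higher peaks and Ifngr1 had both, and in RORgt-RORa-KO 3 had only higher peaks and Ifngr1, Jak1 and Irf2 had both. These peaks had a median difference of 0.16 in RORgt-KO, 0.32 in RORgt-Tbet-KO and 0.34 in RORgt-RORa-KO, against 0.02, 0.01 and 0.02 over all peaks. A peak 31787 bp from Irf1, a factor that binds the interferon-responsive Ciita promoter, was higher by 1.15 in RORgt-KO (SE 0.30, limma adjusted p = 0.0092) and by 2.03 in RORgt-RORa-KO (SE 0.26, limma adjusted p = 9.32e-07). Another Irf1 peak was higher by 0.92 in RORgt-Tbet-KO (SE 0.21, limma adjusted p = 0.00246). Ifngr2, a receptor chain, had 2 higher peaks in each knockout group. The leading one was 12723 bp from the gene in RORgt-Tbet-KO (higher by 1.37, SE 0.19) and RORgt-RORa-KO (1.01, SE 0.17), and another, inside the gene, in RORgt-KO (1.29, SE 0.30).

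A peak 11727 bp from Irf2, which can also bind that Ciita promoter, was higher by 1.21 in RORgt-KO, 1.30 in RORgt-Tbet-KO and 1.34 in RORgt-RORa-KO (SE 0.22, 0.22 and 0.20). The Jak2 peak 10004 bp from the gene was higher by 1.82 in RORgt-KO (SE 0.46) and 1.95 in RORgt-RORa-KO (SE 0.41). Jak1, with 14 peaks, had a peak lower by 1.07 in RORgt-KO (SE 0.29) and by 1.26 in RORgt-RORa-KO (SE 0.26), and another higher by 1.27 in RORgt-Tbet-KO (SE 0.40). Ifngr1, the other receptor chain, had a peak 8570 bp from the gene that was higher by 1.25 in RORgt-KO (SE 0.36) and by 1.82 in RORgt-RORa-KO (SE 0.32). Its leading peak in RORgt-Tbet-KO was another, at 21210 bp, higher by 0.90 (SE 0.30). Socs1, an inhibitor of JAK signalling, had a peak higher by 0.73 in RORgt-Tbet-KO (SE 0.19, limma adjusted p = 0.00554). Usf1 had no peak past the threshold in a comparison with Control.

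The factors that bind the X and Y boxes were read from 14 peaks of 7 genes. Of these peaks 0 passed in RORgt-KO, 2 in RORgt-Tbet-KO and 4 in RORgt-RORa-KO (14.3% and 28.6%), beside 12.3%, 22.6% and 31.2% of all peaks. In RORgt-Tbet-KO and RORgt-RORa-KO a peak at Rfxap, an RFX subunit, was lower by 0.52 (SE 0.16, limma adjusted p = 0.022) and by 0.74 (SE 0.15, limma adjusted p = 0.000309). Creb1, whose product joins the X box complex, had a peak higher by 0.87 in RORgt-Tbet-KO (SE 0.29) and another by 1.07 in RORgt-RORa-KO (SE 0.22). Nfyc, an NF-Y subunit, had a peak higher by 0.66 in RORgt-RORa-KO (SE 0.22). Rfx5, Rfxank, Nfya and Nfyb had no peak past the threshold in these comparisons.

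Of 9 further genes of class II assembly and peptide loading, 6 had a peak (not H2-DMb1, H2-DMb2 and Marchf1). Of their 20 peaks 0 passed in RORgt-KO, 1 in RORgt-Tbet-KO and 5 in RORgt-RORa-KO, beside the same shares of all peaks (12.3%, 22.6% and 31.2%). Cd83, which protects class II from turnover in dendritic cells and thymic epithelium, had a peak higher by 1.19 in RORgt-Tbet-KO (SE 0.20, limma adjusted p = 7.65e-05). In RORgt-RORa-KO it had 1 higher and 3 lower peaks of 10, the leading one lower by 1.76 (SE 0.28, limma adjusted p = 1.92e-05). H2-Eb2, a further beta chain gene, had a peak higher by 0.93 in RORgt-RORa-KO (SE 0.30, limma adjusted p = 0.0174).

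All 6 costimulatory ligand genes had peaks, and of these 21 peaks 2 passed in RORgt-KO (9.52%), 8 in RORgt-Tbet-KO (38.1%) and 9 in RORgt-RORa-KO (42.9%), beside 12.3%, 22.6% and 31.2% of all peaks. A peak in Cd86, a ligand of CD28, was lower by 1.18 in RORgt-KO, 1.19 in RORgt-Tbet-KO and 1.46 in RORgt-RORa-KO (SE 0.24, 0.24 and 0.21, limma adjusted p = 0.00118, 0.000615 and 5.71e-06). The single Cd40 peak was lower by 1.02 in RORgt-RORa-KO (SE 0.35, limma adjusted p = 0.0257). Pdcd1lg2, which encodes the inhibitory PD-1 ligand PD-L2, had a peak higher by 2.56 in RORgt-KO, 2.72 in RORgt-Tbet-KO and 2.87 in RORgt-RORa-KO (SE 0.36, 0.36 and 0.32). Cd274, which encodes PD-L1, had a peak higher by 2.10 in RORgt-Tbet-KO (SE 0.75) and 2.39 in RORgt-RORa-KO (SE 0.67), and Icosl by 0.69 (SE 0.19) and 0.77 (SE 0.17). Cd80 had no peak past the threshold. Cd86 and Cd40 are also B cell and dendritic cell genes, and the part of such cells was not tested.

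The 5 other genes whose peaks followed the Ciita peak at 10465265 most closely over the 10 libraries were Maml3 (Pearson's r = 0.97), Lrrc28 (0.97), Phlpp1 (0.95), Cry1 (0.95) and Plcb4 (0.95), chosen as the highest correlations with 1 peak per gene. Maml3, a coactivator of Notch signalling, had 5.41 and 5.04 in the RORgt-KO libraries, 5.20 and 5.60 in RORgt-Tbet-KO, 3.81, 4.14 and 3.93 in RORgt-RORa-KO, and 5.62, 5.96 and 5.26 in Control. Its RORgt-RORa-KO libraries lay below all others, as at the Ciita peak. These correlations describe 10 libraries that share groups, and no p is given.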

How the data were processed

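ATAC-seq reads of 10 libraries were trimmed with Trim Galore 0.62, aligned with Bowtie2 2.3.5.1, and filtered with SAMtools, and MACS2 called the peaks; the submitters' processing notes name these tools and GRCm38. The authors deposited 1 table of log2 scaled read counts for 36262 peaks; the sources used here do not say how the scaling factor was set. Raised to the power of 2, all values of non-empty peaks were whole multiples of 1 step per library within a tolerance of 0.01, and empty peaks held 0.9 of that step. The multiples give the reads quoted, and precision is limited by their number. The 11 peaks on Y were left out. Coordinates are as the deposited table gives them, and genes come from RefSeq on GRCm38.p6, which assigned 32579 peaks to 13967 protein-coding genes.

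limma 3.58.1 in R 4.3.3, with a mean-variance trend (6 residual and 22.5 prior degrees of freedom), gave every p of a peak and the 95% intervals, and was tested on simulated data. Members and gene lists were chosen with earlier results of these data known. Every peak of the 8 genes is named. A few genes of the other lists are not reported here by name. Of the pathway lists, each gene past the threshold against Control is named by its peak of smallest p. A gene with at least 1 peak past the threshold counts as changed, which favours genes of many peaks. Levels per kb divide summed linear values by summed peak length. Replicates are biological, per the labels. Same-numbered libraries of different groups deviated together at r = -0.12 to 0.14 over 13 pairs, and the labels do not pair them. Alternatives were median centring, a minimum mean of 10 reads, a pseudocount of 1, limma voom on the recovered reads with a hand-computed trimmed-mean scaling, a fit of the 2 groups compared, a replicate block, peaks within 5 kb, leaving out each library and, added after the data were seen, leaving out the 2 peaks shared with Brd2. Figures were drawn with matplotlib 3.10.9.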

Additional observations from a re-analysis of the deposited data

How the results depend on the processing

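No class II difference that passed, as reported or under an alternative, changed direction. The Ciita calls at 10465265 and 10524713 in RORgt-RORa-KO held under all 16 alternatives. Class II peaks past the threshold numbered 5 in RORgt-Tbet-KO and 5 in RORgt-RORa-KO against Control both with voom and with the replicate block (3 each as reported), and the F test gave 6 under either. With peaks within 5 kb, the F test gave 1 and RORgt-RORa-KO minus RORgt-Tbet-KO gave 0. That limit also leaves out 2 peaks called against Control. They are the Ciita peak at 10465265 in RORgt-RORa-KO and the H2-Aa peak at 34295807 in RORgt-Tbet-KO. Over all peaks, RORgt-Tbet-KO minus RORgt-KO gave 637 with voom (28.9% higher, against 15.7% of the 415 reported), 666 with the replicate block (30.0% higher) and 3341 with these 2 groups alone (57.9% higher, where most of those reported were lower). The cause was not tested. The replicate numbers did not pair the libraries (3 of 10 correlated best with their own number), and the block changed no other class II count.

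Leaving out a library each in turn gave 1711 to 5291 peaks past the threshold in RORgt-KO, 3359 to 9551 in RORgt-Tbet-KO and 9082 to 11851 in RORgt-RORa-KO against Control. It gave 91 to 712 for RORgt-Tbet-KO minus RORgt-KO, 86 to 606 for RORgt-RORa-KO minus RORgt-KO and 967 to 3778 for RORgt-RORa-KO minus RORgt-Tbet-KO. Class II peaks numbered 0 to 1 in RORgt-KO, 0 to 4 in RORgt-Tbet-KO and 2 to 5 in RORgt-RORa-KO against Control, 0 to 1 for RORgt-RORa-KO minus RORgt-Tbet-KO and 2 to 3 in the F test. Leaving out a library of a pair leaves 1, which is then assumed to vary like the other groups. The F test could not be run on 2 groups. With a minimum mean of 10 reads, the Ciita peak at 10498239 has no value.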

Other observations

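The chromatin around Ciita held further peaks that were less open in the knockouts. Within 100 kb of the gene, 9 peaks belonged to other genes, of which RORgt-KO and RORgt-Tbet-KO each had 3 below Control by the limma test and RORgt-RORa-KO had 4, with 0 higher in each. Of all peaks, 7.12% were lower in RORgt-KO, 11.3% in RORgt-Tbet-KO and 16.1% in RORgt-RORa-KO. These peaks were looked at after the Ciita values had been seen. Clec16a, a regulator of autophagy and mitophagy that lies beside Ciita, accounted for 3 of them in each knockout group.

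At the Clec16a peak at 10574801 to 10575262 (chromosome 16) the log2 values were 5.45 and 5.90 in the RORgt-KO libraries, 5.98 and 6.05 in RORgt-Tbet-KO, 5.13, 5.63 and 5.30 in RORgt-RORa-KO, and 7.32, 7.34 and 7.22 in Control. Every knockout library lay below every Control library. The differences were -1.61 in RORgt-KO (SE 0.26, 3.06-fold lower, limma adjusted p = 0.000107), -1.28 in RORgt-Tbet-KO (SE 0.26, 2.42-fold lower, limma adjusted p = 0.000776) and -1.94 in RORgt-RORa-KO (SE 0.23, 3.83-fold lower, limma adjusted p = 2.92e-07), larger than those of the Ciita peak at 10524713. The Clec16a peaks at 10566552 and 10584674 differed by -1.53 to -1.14 over the knockout groups. On the other side of Ciita, the Tvp23a peak at 10448789 had 8.17 and 7.99 in the RORgt-KO libraries, 8.44 and 8.46 in RORgt-Tbet-KO, 7.56, 7.86 and 7.73 in RORgt-RORa-KO, and 8.71, 8.65 and 8.16 in Control. RORgt-RORa-KO lay below every other library there, by 0.79 against Control (SE 0.17, limma adjusted p = 0.000651) and by 0.73 against RORgt-Tbet-KO (SE 0.19, limma adjusted p = 0.0136), the order also seen at the Ciita peak at 10465265. No target gene was assigned to these peaks other than by distance.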
